A study of Mus musculus with 34 samples.

Results

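The measurements concern 10 genes by which cardiac fibroblasts and the epicardium, the outer cell layer of the heart, are commonly recognised: Thy1, Pdgfra, Ddr2, S100a4, Tcf21, Tbx18, Wt1, Twist1, Twist2 and Meox1. Members were taken as the probes whose gene name in the array files equalled one of these names, and all 10 were among the 19413 genes tested. RNA was measured on 34 single-colour Agilent arrays, 2 for each of 17 groups of mouse cells. All groups came from the CD1 strain and carried an aMHC-GFP reporter, a fluorescent protein under a cardiomyocyte promoter.

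The groups were as follows. MGT denotes cardiac fibroblasts given a retrovirus that encodes Mef2c, Gata4 and Tbx5 on a single transcript, collected on days 3, 5, 7, 10 and 14. iCM denotes contracting cells made with the same factors and collected at 4 weeks. iPSC1-CM D13, iPSC2-CM D9 and iPSC2-CM D29 denote cardiomyocytes differentiated from 2 pluripotent lines, themselves made from cardiac fibroblasts with Oct4, Sox2, Klf4 and cMyc. neoCM denotes cardiomyocytes isolated from pups at postnatal day 1.5. The references were fibroblasts given LacZ virus and collected on the same 5 days, uninfected cultured fibroblasts on day 0 (CF D0), and fibroblasts isolated from pups of the same age (neoCF). The labels name no sort of infected or GFP-positive cells. The 2 pluripotent lines were sampled on different days, so line and day cannot be told apart, and iCM and iPSC-derived cells were kept in a supplemented medium that the labels do not give for the other groups.

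Cardiac fibroblasts arise largely from the epicardium, whose cells leave the heart surface, become mesenchymal and settle between the cardiomyocytes. Wt1, Tcf21 and Tbx18 are transcription factors that mark the epicardium and its descendants, and Twist1 and Twist2 are basic helix-loop-helix factors of mesenchymal cells. Surface proteins such as Pdgfra and Thy1 are used to tell fibroblasts from other heart cells. No single gene is exclusive to fibroblasts, which is why several are read side by side.

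Each level below comes from a 60-base probe, and the first 30 bases are shown for the 5 genes that carry the main differences between MGT and LacZ cultures. They are in lower case, 5′ to 3′, with mm9 positions from the array's own annotation.
Thy1, chr9:43856591-43856650, plus strand: taataccaccactgctacagcatctcaccg
Pdgfra, chr5:75593888-75593947, plus strand: tgtatatatctgttgctatgtagacttgga
Tbx18, chr9:87599514-87599573, minus strand: gtgcagaagctggttaaatcttagtatatt
Wt1, chr2:105013656-105013715, plus strand: ggtattagctgcatcactgtgtggatgtca
Meox1, chr11:101738847-101738906, minus strand: ctaagattacatcaagctaattgtgcaagg
The 10 genes were covered by 12 probes in all, since Ddr2 and S100a4 had a second one.

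A level is the log2 intensity of a probe minus the 75th percentile of its array, so that 0 is that percentile. Levels of different genes are not comparable, because probes differ in how well they bind. A difference was called when limma's moderated test over all 34 arrays gave a Benjamini-Hochberg adjusted p under 0.05 over all genes and the change was at least 2-fold. Replicate arrays correlated at r = 0.984 to 0.997 in 16 groups. The lowest of these was LacZ D14, a reference for the day 14 and iCM comparisons, with 2524 genes at least 2-fold apart between its arrays. The iPSC2-CM D29 arrays stood apart from the 16 groups, at r = 0.895 and with 8216 genes at least 2-fold apart between them. Several members differed widely between these 2 arrays, and because all groups share an estimate of the spread, the standard errors of every comparison of those genes were enlarged. Values are therefore also given for a fit of the other 32 arrays, an alternative chosen after the data were seen. Mef2c, one of the 3 factors, had levels of 3.09 and 3.2 in MGT cultures on day 3, against -3.64 and -3.63 in LacZ cultures. Over days 3 to 10 its difference was 4.69 (limma, adjusted p = 2.8e-12), and those of Gata4 and Tbx5 were 0.34 and 0.25 and not called. Whether the probes of the 3 factors lie in sequence that the virus carries was not examined. These values therefore do not tell how much of each factor was delivered. All 12 cardiomyocyte markers examined were higher in MGT than in LacZ cultures over days 3 to 10, by a median of 5.4 on the log2 scale. Myl7, the atrial myosin light chain, differed by 9.28 and Ttn, the giant sarcomere spring, by 9.

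Fibroblast identity genes did not move as a block after the 3 factors. Relative to LacZ cultures, the mean of days 3 to 10 was 2.65-fold higher for Thy1 and lower for Pdgfra, Wt1 and Meox1, while the other 6 members were not called. That is 4 of 10 members called, 1 higher and 3 lower, in a comparison in which 9.92% of all genes were called, 5.47% higher and 4.45% lower. The median change of the 10 members was -0.64, against -0.09 over all genes. The 4 genes were also the ones called without the iPSC2-CM D29 arrays, where 10.3% of all genes were called. On all 5 days, both MGT arrays lay above both LacZ arrays for 2 members, Thy1 and Tbx18, and below them for 5 members, Pdgfra, Ddr2, Wt1, Twist1 and Meox1. Over all genes, 10.1% lay above and 15.8% below on all 5 days, 25.9% in all.

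**Figure D1:**
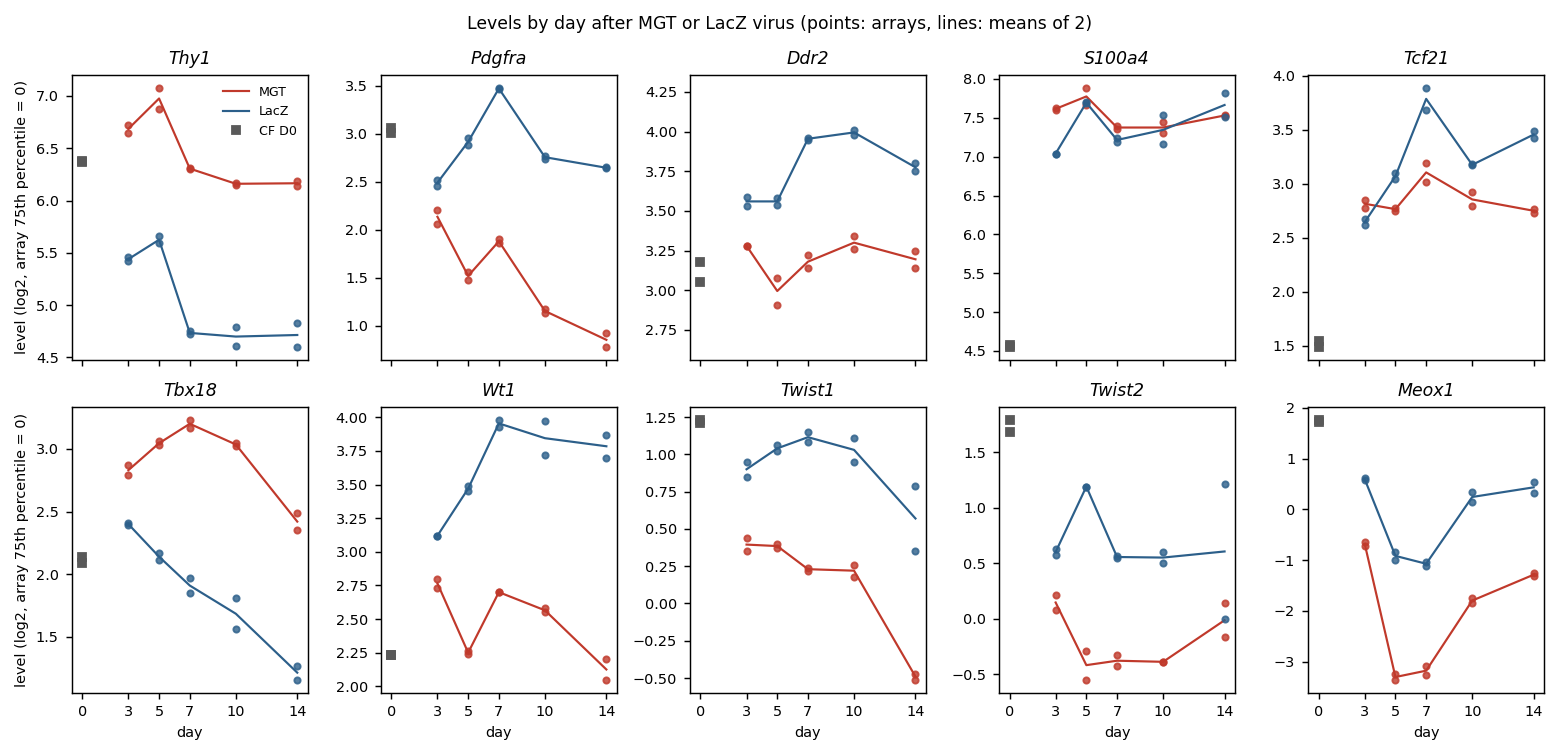
Level of each gene (log2, 0 is the 75th percentile of the array) by day after virus. Points are single arrays, lines join the means of 2 arrays of MGT (red) and LacZ (blue) cultures, and squares are CF D0. Thy1 and Tbx18 run above LacZ throughout, and Pdgfra, Ddr2, Wt1, Twist1 and Meox1 run below it. The vertical scale differs between genes.

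Among the surface proteins, Thy1 was the gene that stood higher with the factors. Thy1 encodes a GPI-anchored glycoprotein found on fibroblasts, and also on T cells and neurons. Its levels in MGT cultures were 6.65 and 6.72 on day 3, 6.87 and 7.08 on day 5, 6.31 and 6.3 on day 7, 6.15 and 6.17 on day 10, and 6.19 and 6.14 on day 14. In LacZ cultures they were 5.46 and 5.42, 5.66 and 5.59, 4.72 and 4.75, 4.79 and 4.61, and 4.6 and 4.83 on the same days. The arms did not overlap on any day, and CF D0, at 6.38 and 6.37, lay between them only on days 3 and 5. On day 14 LacZ cultures were 1.66 below CF D0 on the log2 scale (adjusted p = 0.21 with 34 arrays and 3e-09 with 32).

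The MGT minus LacZ difference of Thy1 averaged 1.41 ± 0.53 (SE) over days 3 to 10 (limma, adjusted p = 0.045, n = 8 arrays an arm). It ranged from 1.24 to 1.57 over single days, where no call was reached with 34 arrays, at adjusted p = 0.37 to 0.67. Without the iPSC2-CM D29 pair it was called on each of the 5 days, with adjusted p between 2.2e-08 and 1.1e-06. With those arrays kept, leaving out any of the 16 arrays of the average ended its call, at differences of 1.38 to 1.43. The authors' log2 values did so too (limma, adjusted p = 0.058). Slide as a fixed block gave 0.053. On each of days 3 to 10 both arms shared a slide, so the block could not change this difference, only its standard error. Of 6 T cell markers 0 were called by limma over days 3 to 10 (2 at an unadjusted p under 0.05), and their median change was -0.44. The share of any cell type, and the amount of Thy1 RNA in each cell, cannot be told apart in such bulk samples.

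Pdgfra moved the opposite way. It encodes the alpha receptor for platelet-derived growth factor, which signals survival and proliferation in fibroblasts. MGT cultures had 2.06 and 2.21 on day 3, 1.48 and 1.56 on day 5, 1.9 and 1.86 on day 7, 1.13 and 1.18 on day 10, and 0.93 and 0.78 on day 14. LacZ cultures had 2.46 and 2.52, 2.88 and 2.95, 3.48 and 3.46, 2.74 and 2.77, and 2.65 and 2.64. The arms did not overlap on any day, and all 10 MGT arrays were below the CF D0 arrays at 3.06 and 3.01.

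Over days 3 to 10 Pdgfra fell by 1.24 ± 0.31 on the log2 scale relative to LacZ (limma, adjusted p = 0.0041), a call kept when each of the 16 arrays was left out in turn. The difference was -0.35 on day 3 and -1.6 on day 10. This change in the difference, -1.24 ± 0.89, had adjusted p = 0.82 with 34 arrays and 8.3e-06 with 32, and Pdgfra was then the 1 member called, against 5.18% of all genes. With 34 arrays 0 of the 10 members were called by limma for such a change (1 at an unadjusted p under 0.05), against 1.99% of all genes. On day 14 Pdgfra was 1.79 lower (adjusted p = 0.046), and leaving out any of the 4 arrays ended that call with 34 arrays, at adjusted p = 0.12 to 0.18, as did quantile normalization (0.094) and the authors' log2 values (0.073).

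Ddr2, a collagen-binding receptor tyrosine kinase, was below LacZ on every day without reaching a 2-fold change. MGT cultures lay between 2.91 and 3.34 over the 5 days, against 3.53 to 4.01 in LacZ cultures and 3.18 and 3.05 in CF D0. The average difference was -0.58 ± 0.39, with adjusted p = 0.27 with 34 arrays and 1.2e-08 with 32. Its second probe gave -0.67 for the same average.

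S100a4, a calcium-binding protein also called fibroblast-specific protein 1 and made by leukocytes as well, was not called between the arms on any day in either fit. MGT arrays lay between 7.3 and 7.89 over the course and LacZ arrays between 7.04 and 7.82, so the arms overlapped. The average difference was 0.21 ± 0.34 (adjusted p = 0.68), or 0.25 with the second probe. On day 14 it was -0.13, and without the second LacZ array 0.02. Both arms were well above CF D0, at 4.57 and 4.55.

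The 3 epicardial transcription factors did not move together. Tbx18, a T-box factor of the epicardium and sinus horns, stood higher with the factors, Wt1 stood lower, and Tcf21 was not called. Tbx18 had 2.79 and 2.87 in MGT cultures on day 3, 3.06 and 3.03 on day 5, 3.23 and 3.17 on day 7, 3.02 and 3.05 on day 10, and 2.49 and 2.35 on day 14. LacZ cultures had 2.41 and 2.39, 2.17 and 2.11, 1.85 and 1.97, 1.81 and 1.56, and 1.27 and 1.16. The arms were apart on every day and widest on day 10, and CF D0 was at 2.14 and 2.09.

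Relative to LacZ cultures, Tbx18 was higher by 1.29 ± 0.39 on day 7 (limma, adjusted p = 0.032), 1.35 on day 10 (0.023) and 1.2 on day 14 (0.032). Leaving out any 1 of the 4 arrays compared on a day ended these calls with 34 arrays, at adjusted p between 0.064 and 0.15. With 32 arrays adjusted p was between 1.1e-07 and 5.1e-07 on those days. The average over days 3 to 10, 0.99 ± 0.2, had adjusted p = 0.00048 but at 1.99-fold was short of the 2-fold limit. Its change between days 3 and 10, 0.92, had adjusted p = 0.69 with 34 arrays and 0.0023 with 32 and was not called in either.

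Wt1, a zinc finger factor required for the epicardium to give rise to mesenchyme, was below LacZ on all days and called lower from day 5 on. MGT cultures had 2.73 and 2.8 on day 3, 2.26 and 2.24 on day 5, 2.7 and 2.7 on day 7, 2.55 and 2.58 on day 10, and 2.05 and 2.2 on day 14. LacZ cultures had 3.12 and 3.12, 3.45 and 3.49, 3.98 and 3.93, 3.97 and 3.72, and 3.87 and 3.7. The arms did not overlap on any day. CF D0 had 2.23 on both arrays, which lay within the range of the MGT arrays and below all LacZ arrays.

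Over days 3 to 10 Wt1 averaged 1.03 ± 0.15 lower (log2) in MGT than in LacZ cultures (limma, adjusted p = 1.7e-05). Leaving out the first LacZ array of day 10 moved this to -0.99, under 2-fold. Quantile normalization and the authors' deposited log2 values did so too, at -0.94 each. By day the difference was -0.36 on day 3, -1.22 on day 5, -1.25 on day 7, -1.28 on day 10 and -1.66 on day 14, called on the last 4 days at adjusted p = 0.0004 to 0.0076. The call on day 5 was lost without the second MGT array (0.052) or the second LacZ array (0.054), and that on day 10 without the first LacZ array (0.055). With 32 arrays the same 4 days were called.

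Tcf21, a basic helix-loop-helix factor that epicardial cells need to become cardiac fibroblasts, stayed between 2.73 and 3.19 in MGT cultures over the 5 days. LacZ cultures lay between 2.62 and 3.89, and CF D0 at 1.49 and 1.55, so all 20 course arrays exceeded the day 0 level. MGT arrays were above LacZ on day 3 and below it on the other 4 days. The average difference over days 3 to 10 was -0.28, under 2-fold (limma, adjusted p = 0.00016 with 32 arrays). No day was called in either fit, and the largest difference was -0.7 on day 14, with adjusted p = 0.6 with 34 arrays and 3.3e-05 with 32.

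Twist1 and Twist2, close relatives that repress or activate genes from E-box sequences, were each called lower with the factors on a single day. Twist1 had 0.35 and 0.44 in MGT cultures on day 3 and -0.47 and -0.51 on day 14, against 0.95 and 0.85, and 0.79 and 0.35, in LacZ cultures. Its arms did not overlap on any of the 5 days. The test of Twist1 passed adjusted p = 0.05 on every day, at -0.5, -0.65, -0.89, -0.81 and -1.06 in turn, and day 14 alone reached 2-fold (limma, adjusted p = 2.1e-06). Without the first LacZ array the day 14 difference was -0.84.

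Twist2 had -0.55 and -0.29 in MGT cultures on day 5, against 1.19 and 1.19 in LacZ cultures. That difference, -1.6 ± 0.33, was its only call (limma, adjusted p = 0.0019). The average over days 3 to 10 was -0.98 ± 0.17 (adjusted p = 9.1e-05), under 2-fold. On day 14 the LacZ arrays were 1.21 apart, at 1.21 and 0, and overlapped the MGT arrays at 0.14 and -0.17.

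Meox1, a homeobox factor of paraxial mesoderm that has been tied to fibroblast activation in the injured mouse heart, had the largest negative differences of the 10 genes on days 3 to 10. MGT cultures had -0.72 and -0.64 on day 3, -3.25 and -3.35 on day 5, -3.26 and -3.09 on day 7, -1.75 and -1.84 on day 10, and -1.25 and -1.32 on day 14. LacZ cultures had 0.57 and 0.62, -0.83 and -1, -1.11 and -1.03, 0.35 and 0.14, and 0.54 and 0.33. Both arms were below CF D0, at 1.76 and 1.72, on all days and lowest on days 5 and 7.

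Over days 3 to 10 Meox1 averaged 1.95 ± 0.65 lower (log2) in MGT than in LacZ cultures (limma, adjusted p = 0.025). The call was kept when each array was left out in turn, at -1.98 to -1.93. Single days ranged from -1.28 to -2.38, not called with 34 arrays (adjusted p = 0.28 to 0.77) and all called with 32 (3.7e-06 to 0.0034).

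**Figure D2:**
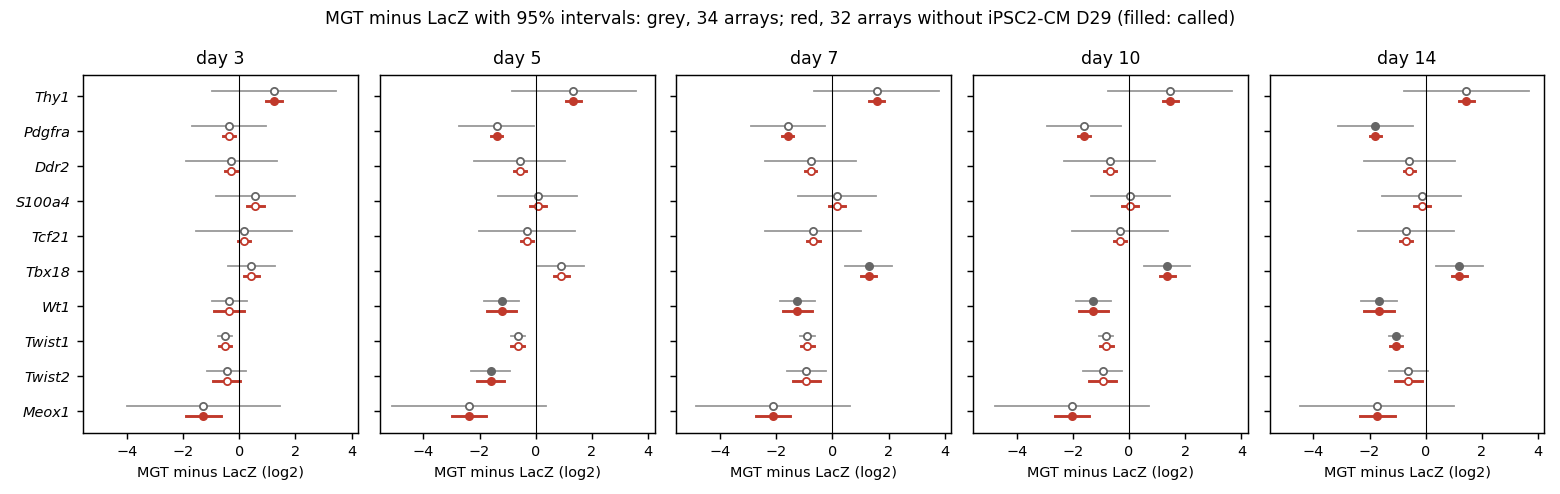
MGT minus LacZ (log2) for each gene on days 3, 5, 7, 10 and 14, with 95% intervals. Grey marks the fit of 34 arrays and red the fit of 32 arrays without iPSC2-CM D29, and filled points were called. The estimates coincide, and the grey intervals are far wider than the red ones for Thy1, Pdgfra, Ddr2, S100a4, Tcf21 and Meox1.

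By day, limma with 34 arrays called 0 members on day 3 (1 at an unadjusted p under 0.05), where 5.05% of all genes were called. It called 2 on day 5 (8.29% of all genes), 2 on day 7 (8.76%), 2 on day 10 (8.61%) and 4 on day 14 (13%). With 32 arrays the members called were 2, 5, 5, 5 and 6, against 7.77%, 10.9%, 11.7%, 11.2% and 16.2% of all genes. On days 3 to 10 the MGT and LacZ arrays compared shared a slide. On day 14 they lay on different slides, so that slide and virus cannot be told apart there.

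Promoters of Pdgfra and Tbx18, whose levels parted in opposite directions, are shown because Twist and Tcf21 proteins bind E-boxes (CANNTG, capitals), and T-box proteins recognise AGGTGT. Sequences are from RefSeq, build GRCm38.p6, 250 bases before to 50 after the gene start, 5′ to 3′ on the gene's strand.
Pdgfra, chr5:75152001-75152300, plus strand: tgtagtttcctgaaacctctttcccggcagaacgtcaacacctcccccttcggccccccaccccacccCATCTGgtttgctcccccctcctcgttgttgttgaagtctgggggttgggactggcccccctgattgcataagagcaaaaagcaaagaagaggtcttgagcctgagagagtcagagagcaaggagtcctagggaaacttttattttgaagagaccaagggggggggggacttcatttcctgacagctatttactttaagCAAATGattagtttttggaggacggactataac
Tbx18, chr9:87731211-87731510, minus strand: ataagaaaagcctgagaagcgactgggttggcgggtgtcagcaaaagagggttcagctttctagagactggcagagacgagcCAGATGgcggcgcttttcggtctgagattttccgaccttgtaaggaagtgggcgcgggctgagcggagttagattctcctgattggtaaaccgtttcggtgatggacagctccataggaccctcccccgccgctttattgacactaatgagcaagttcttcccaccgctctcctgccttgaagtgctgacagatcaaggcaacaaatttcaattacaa
Pdgfra held 2 E-boxes and 1 AGGTGT on either strand, and Tbx18 held 1 E-box. E-boxes occurred in 3 of the 7 members matched in the table (Ddr2, Pdgfra and Tbx18), against 72.3% of 32817 promoters of this length. AGGTGT occurred in 2 of 7 (Pdgfra and Twist1), against 13.7%. The GATA core, with A or T before it and A or G after it, occurred in 2 of 7 (Ddr2 and Tcf21), against 29.8%. A MEF2-like word, CTA and TAG with any 4 bases between them, occurred in 0 of 7, against 3.69%. These matches describe the letters in the window and say nothing of binding.

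Other genes of the same biology were read from lists over days 3 to 10. Of 23 genes of fibroblast surface and matrix, 9 fell and 1 rose in MGT cultures relative to LacZ, and the median change was -1.07 against -0.09 over all genes. Lum and Dpt, small proteins that organise collagen fibrils, had changes of -2.72 ± 0.74 and -2.36 ± 0.54 on the log2 scale (limma, adjusted p = 0.0068 and 0.0017). Cthrc1, a secreted protein of activated fibroblasts, was the gene that rose, by 2.71 ± 0.08 (adjusted p = 6.2e-16). With 32 arrays 12 of the 23 fell.

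Of 15 epicardial and mesothelial genes, 3 rose and 5 fell, and the median change was -0.16. Msln and Efemp1, a mesothelial surface protein and a matrix glycoprotein, rose by 1.51 and 1.68 (adjusted p = 1.5e-05 and 0.00046). Lrrn4, a mesothelial surface protein, and Muc16, a membrane mucin, fell by 1.99 and 1.92 (adjusted p = 0.0039 and 0.00044).

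Of 16 mesenchymal and EMT transcription factors, 7 fell and 0 rose, with a median change of -0.76. Snai1, a zinc finger repressor of E-cadherin, fell by 1.59 (adjusted p = 2.6e-10), and Sox9, a factor of cartilage and valve mesenchyme, by 1.77 (1.7e-10). Among 11 helix-loop-helix partners and inhibitors of Twist and Tcf21, 4 fell, including Id1 by 1.81 (3.5e-12) and Id4 by 1.37 (2.5e-05), and 0 rose. Id proteins pair with the E-proteins that Twist and Tcf21 need.

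Of 5 PDGF ligands and receptors other than Pdgfra, Pdgfd fell by 1.96 (limma, adjusted p = 1.9e-09) and no other was called with 34 arrays, although all 5 had an unadjusted p under 0.05. The ligands of Pdgfra itself, Pdgfa and Pdgfc, had changes of 0.49 and 0.96, Pdgfb, a ligand of both receptors, 0.41, and Pdgfrb, the beta receptor, -1.09, which was called lower with 32 arrays (adjusted p = 4.5e-13). Of 7 T-box relatives, Tbx2 rose by 1.18 and Tbx1 fell by 1.02, and of 8 S100 relatives 0 were called by limma (5 at an unadjusted p under 0.05).

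Markers of other cells were read in the same comparison. Of 12 macrophage markers 0 were called by limma (0 also at an unadjusted p under 0.05), with a median change of 0.1, and of 10 endothelial markers 7 fell, with a median of -1.68. Cldn5, a tight junction protein, fell by 2.59 and Tie1, an endothelial receptor, fell by 2.28. Of 10 smooth muscle and pericyte markers 3 rose, including Des, an intermediate filament protein of muscle, by 4.73 and Cspg4, a proteoglycan of pericytes, by 1.7. The log2 of the summed level of the 12 macrophage genes was 5.21 to 8.48 in MGT arrays and 4.88 to 9.18 in LacZ arrays, and in both arms it was highest on day 14. For the 10 endothelial genes it was 3.07 to 4.66 in MGT arrays and 3.72 to 5.4 in LacZ arrays. Of 10 cell cycle genes 0 were called (1 at an unadjusted p under 0.05). The part of such cells in the members' differences was not tested.

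LacZ cultures were also set against CF D0, which had received no virus. In LacZ cultures on day 14 relative to CF D0, S100a4 rose by 3.11 ± 0.67 (limma, adjusted p = 0.00077) and Wt1 by 1.55 ± 0.3 (0.00025), and Twist2 fell by 1.13 ± 0.33 (0.0087). These were 3 of 10 members, in a comparison in which 27.8% of all genes were called. Twist2 was not called without the second LacZ D14 array, at -0.52 (0.25), or without the second CF D0 array, at -1.07 (0.051). With 32 arrays Tcf21, at 1.93, was also higher and Thy1, at -1.66, and Meox1, at -1.3, were also lower, against 30.3% of all genes. Of the 12 macrophage markers 10 rose in the same comparison, by a median of 2.52, and the part of such cells in the S100a4 difference was not tested.

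By day 3 of LacZ culture S100a4 had risen by 2.48 (adjusted p = 0.0076) and Twist2 had fallen by 1.14 (0.013) relative to CF D0, 2 of 10 members against 15.5% of all genes. The Twist2 call was lost without either LacZ array (0.055 and 0.068) or the second CF D0 array (0.071). With 32 arrays Tcf21, at 1.12, was also higher and Meox1, at -1.14, also lower, against 18.6% of all genes. LacZ cultures of day 3 and CF D0 lay on different slides, so that slide and culture cannot be told apart. Between days 10 and 3 of LacZ culture 0 members were called by limma in either fit (1 at an unadjusted p under 0.05 with 34 arrays), against 7.8% of all genes with 34 arrays and 12.2% with 32. Within MGT cultures 0 were called (0 also at an unadjusted p under 0.05), against 5.97%. With 32 arrays Meox1 was 1.11 lower in MGT cultures on day 10 than on day 3 (limma, adjusted p = 0.0073), against 9.19%. In both arms the arrays of days 3 and 10 lay on different slides, so that slide and day cannot be told apart.

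At 4 weeks, Meox1 was the only gene of the 10 called lower in iCM than in freshly isolated fibroblasts, by either fit. Relative to neoCF, 2 of 10 members were called, against 37.3% of all genes: S100a4 higher and Meox1 lower. With 32 arrays Tcf21 and Ddr2 were also higher, 4 of 10 against 39.4%. The median change of the members was 0.22, against 0.05 over all genes. iCM and neoCF arrays lay on different slides and were scanned on different days, so that these and cell type cannot be told apart, and the same holds for iCM against the day 14 cultures.

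Thy1 had 5.61 and 5.58 in iCM, against 4.69 and 5.16 in neoCF, a difference of 0.67 (adjusted p = 0.61 with 34 arrays and 0.00019 with 32, under 2-fold). Pdgfra had 3.7 and 3.73 in iCM, against 3.67 and 3.86 in neoCF, and the difference of -0.05 had a 95% interval of -1.37 to 1.27. Wt1 had 4.41 and 4.18 in iCM, against 4.52 and 4.14 in neoCF, a difference of -0.04 with an interval of -0.66 to 0.59. The groups overlapped for Pdgfra and Wt1, and the intervals leave room for a change in either direction.

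Tbx18 had 2.02 and 2.04 in iCM, against 2.02 and 1.76 in neoCF, a difference of 0.14 (interval -0.69 to 0.96). Tcf21 had 4.01 and 4.36 in iCM, against 2.93 and 3.03 in neoCF, a difference of 1.2 (adjusted p = 0.22 with 34 arrays and 8.1e-09 with 32). Ddr2 had 4.15 and 4.06 in iCM, against 2.91 and 2.99 in neoCF, a difference of 1.15 (0.21 and 7.7e-09), or 0.8 with the second probe. iCM had the highest Tcf21 of the 17 groups, and the highest Ddr2 by the brighter probe. By the second Ddr2 probe iCM had a mean of 0.88, below LacZ cultures on days 3, 7 and 10, at 0.95, 0.9 and 0.98.

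S100a4 had 7.28 and 6.85 in iCM, against 3.03 and 3.01 in neoCF, and was 16.5-fold higher (limma, adjusted p = 4.2e-05). Meox1 had -6.21 and -6.19 in iCM, against 3.45 and 3.65 in neoCF, and 1 of the 2 iCM arrays was not well above background. It fell by 9.75 ± 1.31 on the log2 scale (adjusted p = 3.5e-06). Every difference of Meox1 in iCM rests on this level, which was well above background on 1 of 2 arrays. Meox2, its closest relative, fell by 5.14 ± 1.15 in the same comparison (0.00079).

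Twist1 and Twist2 had 0.3 and -0.48 as differences between iCM and neoCF and were not called. Of the 23 fibroblast surface and matrix genes, 9 fell in iCM relative to neoCF and 1 rose: Pi16, a marker of adventitial fibroblasts, fell by 5.46 and Postn, a matrix protein of activated fibroblasts, by 3.39, and Lox, a collagen crosslinking enzyme, rose by 3.42 (adjusted p = 3.9e-14, 0.007 and 1.5e-07). Of 15 epicardial and mesothelial genes, 5 rose and 2 fell. Of 12 macrophage markers 2 rose and 1 fell, and their log2 summed level was 7.54 and 7.56 in iCM, against 7.29 and 6.79 in neoCF. In the same comparison 9 of 10 endothelial markers, 4 of 6 T cell markers and 10 of 10 cell cycle genes were lower in iCM, with median changes of -6.01, -3.51 and -3.93. The part of other cells in the members' differences was not tested.

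Relative to MGT cultures on day 14, iCM had higher Pdgfra, by 2.86 ± 0.63 (limma, adjusted p = 0.0014), and higher Wt1, by 2.17 ± 0.3 (1.3e-05), while Meox1 fell by 4.92 ± 1.31 (0.006). These were 3 of 10 members, against 20.4% of all genes, and with 32 arrays Tcf21, 1.43 higher, made 4, against 23.2%. Relative to LacZ cultures on day 14, Meox1 alone was called, at -6.64 in iCM (0.00037), against 28.1% of all genes. Pdgfra was 1.07 higher in that comparison with adjusted p = 0.17 with 34 arrays and 4.1e-08 with 32, against 31%. In the comparison with LacZ cultures 10 of 15 epicardial and mesothelial genes rose and 1 fell in iCM, with Efemp1 up by 3.91 and Krt8, a simple epithelial keratin, by 3.66 (8.5e-05 and 1.4e-07). The log2 summed level of that list was 8.57 and 8.3 in iCM, 6.46 and 6.52 in MGT cultures on day 14, and 6 and 6.03 in LacZ cultures on day 14. Of the 23 fibroblast surface and matrix genes 8 fell and 1 rose, with a median of -0.78 (11 fell and 3 rose with 32 arrays), and Cthrc1 and Col1a1, a chain of type I collagen, had changes of -2.4 and -2.27 (6e-10 and 1.1e-05). In the same comparison 9 of 10 cell cycle, 6 of 12 macrophage and 5 of 6 T cell genes also fell, and their part in the members' differences was not tested.

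Compared with isolated cardiomyocytes, iCM were higher for 7 of 10 members and lower for Meox1, 8 called in all against 39% of all genes, with 18.9% of all genes called higher. The differences were 3.55 for Thy1, 2.11 for Pdgfra, 2.93 for Tcf21, 4.48 for S100a4, 2.22 for Ddr2, 1.48 for Tbx18 and 2.83 for Wt1 (limma, adjusted p = 1.4e-07 to 0.019), and -9.64 for Meox1 (3.4e-06), which was well above background on 1 of the 2 iCM arrays. The second Ddr2 probe gave 0.97, under 2-fold. Within the slide that iCM shared with 1 neoCM array, all 8 differences kept their direction. They ran from 1.58 for Tbx18 to 4.45 for S100a4, with -9.53 for Meox1. Ddr2 had the same 2.22 there and lost its call. Ddr2 also lost its call when any of the 4 arrays was left out, at adjusted p = 0.06 to 0.073. In the same comparison all 12 macrophage markers were higher in iCM, by a median of 4.66, with a log2 summed level of 7.54 and 7.56 in iCM, against 3.08 and 2.99 in neoCM. Of the other lists 8 of 10 endothelial, 7 of 10 smooth muscle and pericyte, 4 of 6 T cell, 10 of 12 cardiomyocyte and 8 of 10 cell cycle genes were lower. The part of such cells in the members' differences was not tested.

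**Figure D3:**
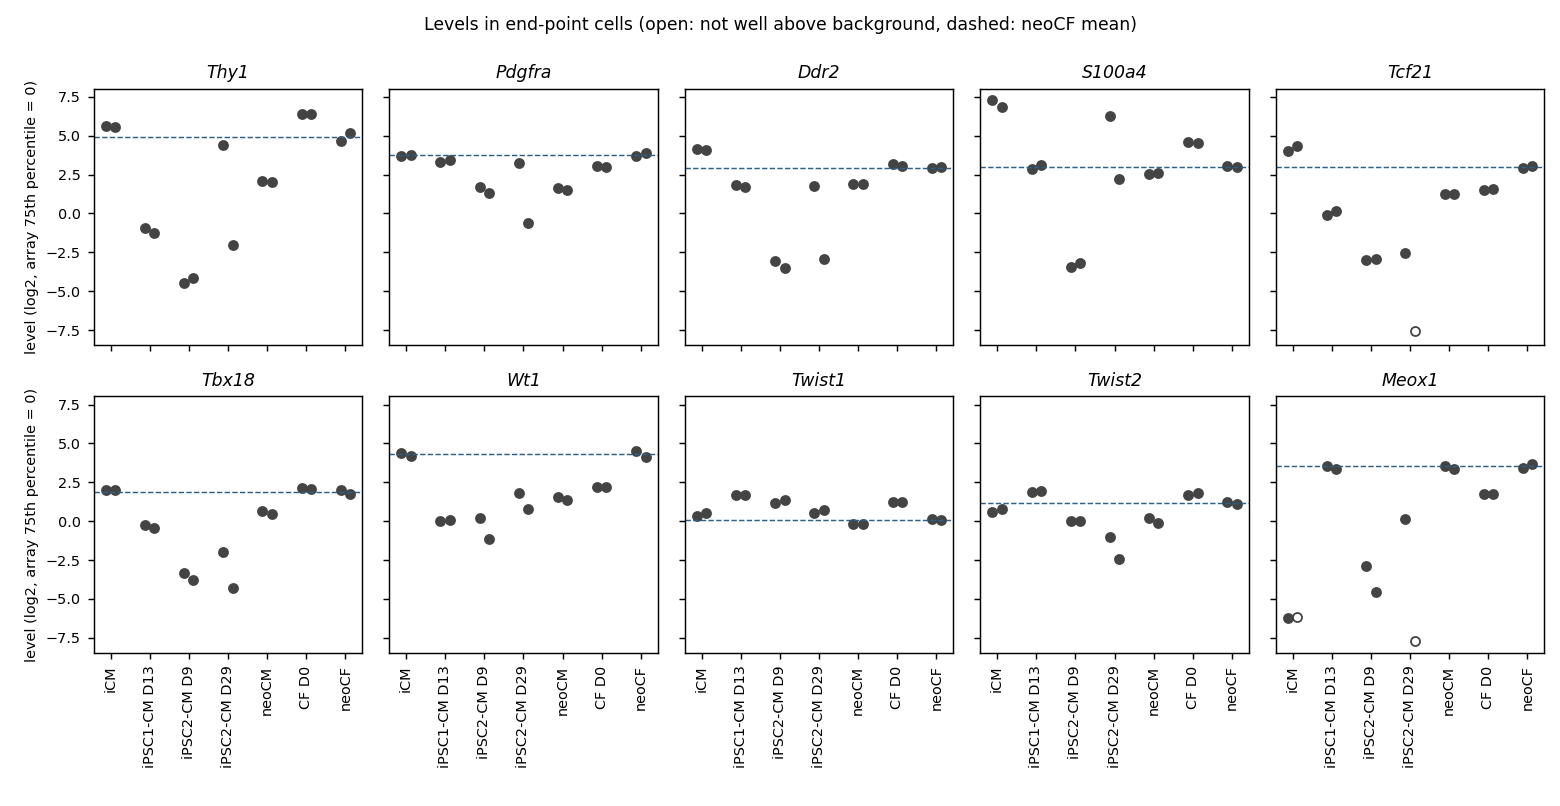
Level of each gene (log2, 0 is the 75th percentile of the array) in iCM, the 3 iPSC-derived groups, neoCM, CF D0 and neoCF. Points are single arrays, open where the probe was not well above background, and the dashed line is the mean of neoCF. iCM lie near or above that line for all genes except Meox1 and Twist2, and the iPSC2-CM D29 arrays are far apart for most genes.

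Cardiomyocytes from pups were lower than fibroblasts for 5 of 10 members, against 16.2% of all genes called lower and 31.6% called in either direction. The neoCM and neoCF arrays lay on different slides and were scanned on different days, so that these and cell type cannot be told apart. Thy1 had 2.09 and 2 in neoCM, against 4.69 and 5.16 in neoCF, and fell by 2.89 ± 1.05 (limma, adjusted p = 0.028). Wt1 had 1.55 and 1.38 in neoCM, against 4.52 and 4.14 in neoCF, and fell by 2.87 ± 0.3 (1.8e-07). Pdgfra fell by 2.17, Tbx18 by 1.34 and Twist2 by 1.12 (0.0073, 0.0079 and 0.0083). The groups did not overlap for any of the 5 genes. Leaving out any of the 4 arrays ended the call of Thy1 (0.066 to 0.12), leaving out the first neoCF or second neoCM array that of Tbx18 (0.056 and 0.052), and leaving out the second neoCM array that of Twist2 (0.075). In the same comparison 12 of 12 macrophage markers, 9 of 10 endothelial markers and 4 of 6 T cell markers were lower in neoCM, with median changes of -4.24, -3.87 and -2.4, and 6 of 10 smooth muscle and pericyte markers were higher. The part of such cells in the members' differences was not tested.

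Meox1 had 3.54 and 3.33 in neoCM, against 3.45 and 3.65 in neoCF, a difference of -0.12 ± 1.31, and the groups overlapped. Tcf21 and Ddr2, at -1.72 and -1.06, were lower with 32 arrays only, against 34.1% of all genes. The second Ddr2 probe gave -0.17, so the probes of this gene disagreed on whether it was lower in cardiomyocytes. Both are shown for this reason, the brighter probe by its first 30 bases and the second one whole, with mm9 positions on the minus strand.
Ddr2, chr1:171903117-171903176: actttgggtttcctgctagacatttttaag
Ddr2, second probe, chr1:171914554-171914613: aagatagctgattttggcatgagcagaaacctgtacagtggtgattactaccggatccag

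The iPSC-derived groups did not share a level of the members. Their arrays and those of neoCF lay on different slides, so that slide and cell type cannot be told apart between them. In iPSC2-CM D9, 9 of 10 members were lower than in neoCF and Twist1 was higher, against 42.9% of all genes called and 21.2% called lower. Thy1 was at -4.46 and -4.18 in these cells, while neoCF had 4.69 and 5.16, and it fell by 9.25 ± 1.05 (limma, adjusted p = 3.2e-07). S100a4 fell by 6.34, Ddr2 by 6.24, Tcf21 by 5.93, Tbx18 by 5.46 and Wt1 by 4.82 (6.2e-11 to 3.6e-06). Meox1 was at -2.91 and -4.54 in these cells, while neoCF had 3.45 and 3.65, and it fell by 7.27 (7.8e-05). Twist1 reached 1.19 and 1.34 in these cells, while neoCF had 0.13 and 0.09, and it rose by 1.16 ± 0.12 (9e-08). In the same comparison 12 of 12 macrophage markers were lower, with a median change of -7.15, as were 9 of 10 endothelial and 2 of 6 T cell markers. The log2 summed level of the macrophage list was 1.32 and 1.77 in iPSC2-CM D9, and neoCF had 7.29 and 6.79. The part of such cells was not tested.

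In iPSC1-CM D13, Thy1, Tcf21, Tbx18 and Wt1 were lower than in neoCF, at -6.01, -2.96, -2.21 and -4.27 on the log2 scale, and Twist1 was 1.56 higher (limma, adjusted p = 5.7e-10 to 0.0049). These were 5 members, against 31.9% of all genes. Ddr2, at -1.19, was also lower with 32 arrays (limma, adjusted p = 5.2e-09), 6 members against 33.8%. Its second probe had means of -0.13 in iPSC1-CM D13 and 0.09 in neoCF. With 34 arrays 12 of 12 macrophage, 9 of 10 endothelial and 3 of 6 T cell markers were lower in the same comparison. The part of such cells was not tested. Pdgfra, at 3.32 and 3.42, S100a4, at 2.84 and 3.12, and Meox1, at 3.57 and 3.36, were not called against neoCF, with differences of -0.39, -0.04 and -0.08. Relative to iPSC2-CM D9, iPSC1-CM D13 was higher for 8 members, all but Wt1 and Twist1, against 12.2% of all genes called higher and 21.3% called in either direction, with 7.19 for Meox1 and 6.3 for S100a4 (0.00021 and 3.9e-07). A pair of these calls were lost when an array was left out: Thy1 for each of the 4 arrays (0.064 to 0.09) and Pdgfra for 3 of them (0.08 to 0.13).

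The iPSC2-CM D29 arrays gave no common level for most members. Thy1 had 4.4 on the first array and -2.04 on the second, Pdgfra 3.23 and -0.59, S100a4 6.26 and 2.22, and Ddr2 1.79 and -2.93. Meox1 and Tcf21 were not well above background on the second array. Against neoCF 8 members were called lower, where 17.2% of all genes were called lower and 38% in either direction, but without the second array Thy1 and Pdgfra differed by -0.52 and -0.54 and were not called. Against iPSC2-CM D9 6 members were called, against 24.2% of all genes. They included Tcf21, called lower at -2.1 (adjusted p = 0.045) although the arrays of the 2 groups overlapped, and 0.39 without the second D29 array. Array weights left 3 calls there, Thy1, S100a4 and Ddr2.

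CF D0, the culture from which the course began, differed from neoCF in Twist1 and Wt1. Twist1 had 1.21 and 1.23 in CF D0, against 0.13 and 0.09 in neoCF, and rose by 1.11 ± 0.12 (limma, adjusted p = 2e-07). Wt1 had 2.23 on both CF D0 arrays, against 4.52 and 4.14 in neoCF, and fell by 2.1 ± 0.3 (6.7e-06). These were 2 of 10 members, against 34.9% of all genes. With 32 arrays 6 were called, against 37.1%: Thy1 and S100a4 were also higher, by 1.45 and 1.54, and Tcf21 and Meox1 were also lower, at -1.46 and -1.81. Markers of other cells also differed: 12 of 12 cardiomyocyte markers and 8 of 10 endothelial markers were lower in CF D0, with median changes of -3.29 and -3, and of 12 macrophage markers 6 were lower and 2 higher. The log2 summed level of the cardiomyocyte list was 4.7 and 4.53 in CF D0, against 7.91 and 7.34 in neoCF, where all 12 were well above background. The part of such cells in the members' differences was not tested.

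Over the 17 groups the range of group means was 11.29 on the log2 scale for Thy1 and 11.09 for S100a4, and 2.16 for Twist1. Thy1 was highest in MGT cultures on day 5 and lowest in iPSC2-CM D9, and so was S100a4. Pdgfra was highest in neoCF and Twist1 in iPSC1-CM D13, and both were lowest in MGT cultures on day 14. Wt1 was highest in neoCF and lowest in iPSC2-CM D9, Tbx18 was highest in MGT cultures on day 7 and lowest in iPSC2-CM D9, and Meox1 was highest in neoCF and lowest in iCM. Of the 16 neighbouring pairs in each order, between 5 (Pdgfra, Tcf21 and Wt1) and 11 (S100a4) had overlapping arrays, so that their order is not resolved.

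As a description over the means of the 17 groups, which share cultures and slides, the gene with the most similar pattern was Tlr4 for Thy1 (Pearson r = 0.974), Atrnl1 for Pdgfra (0.889) and Septin8 for Tcf21 (0.968). It was Mon1b for S100a4 (0.976), Npdc1 for Ddr2 (0.977), Lima1 for Tbx18 (0.967) and Entpd2 for Wt1 (0.957). Twist1 was most like Alg2 (0.878), Twist2 most like Arhgef40 (0.902) and Meox1 most like the histone gene H2ac22 (0.919).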

How the data were processed

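Total RNA from 34 samples, 2 in each of 17 groups, was hybridised to single-colour Agilent 8x60K mouse arrays. Per the file headers, the deposited intensity values were background-adjusted by Feature Extraction 10.7.3.1, with no scaling between arrays recorded. The authors also deposited log2 values, with column medians of 7.493 to 7.523 and r of at least 0.982 with the log2 intensities. The submitters' processing notes name limma without a version. Scale and centring beyond log2 stay unknown for them, and they served as an alternative.

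Outlier spots (6881 in all) were left out, spots of a probe averaged on the log2 scale, and each array's 75th percentile subtracted. RefSeq annotation (GRCm38.p6) named 26056 of 55681 probes through accessions, 3200 through current symbols and 930 through outdated ones, and 25495 stayed unnamed. The filter asked for a signal well above background on the 2 arrays of some group, and the brightest probe represented its gene, which left 19413 genes. limma 3.58.1 (R 4.3.3) fitted 1 mean per group with a shared spread (17 residual degrees of freedom, prior 1.99). Calls required a Benjamini-Hochberg adjusted p under 0.05 and a 2-fold change. The procedure was tested on simulated data. The number of arrays limits the precision. Between 28715 and 44881 spots were well above background on an array.

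The labels do not say that the 2 replicates of a group came from separate cultures or animals, so p-values measure the spread between these samples, which may be technical. The members and the gene lists were chosen with earlier results of these data known. The rule for genes named besides the members took, from each list and comparison, at most the 2 called genes with the largest rise and the 2 with the largest fall, all delivered factors and PDGF genes, and, for each member, genes most like it over the 17 groups. The arrays lay on 6 slides scanned on 3 days. Alternatives comprised quantile normalization, normexp background correction, the authors' values, no filter on dim probes, the mean of a gene's probes, array weights, slide and replicate blocks, each array left out in turn and, added after seeing the data, the fit without both iPSC2-CM D29 arrays.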

Additional observations from a re-analysis of the deposited data

Results flagged for a closer look

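The MGT minus LacZ difference of Pdgfra changed between day 10 and day 3 by -1.24 on the log2 scale, by the test of that change itself, with adjusted p = 8.3e-06 in limma's fit without the iPSC2-CM D29 arrays. MGT arrays had 1.13 and 1.18 on day 10 and 2.06 and 2.21 on day 3, against 2.74 and 2.77, and 2.46 and 2.52, in LacZ arrays. With all 34 arrays the same change had adjusted p = 0.82.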

How the results depend on the processing

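Of 155 values of the members, array weights kept all directions, lost 3 calls of 77 and added 31. The fit without iPSC2-CM D29 kept the direction of 141 values, lost 0 calls of 63 and added 31. Single genes of the lists were refitted only without the iPSC2-CM D29 arrays, so the other alternatives do not cover them. Members called with array weights numbered 2 on day 3, 5 on days 5, 7 and 10, 1 for the change of the MGT effect, 1 for MGT day 10 against 3, 4 and 6 for LacZ days 3 and 14 against CF D0, 2 for iCM against LacZ, 4 for iCM against neoCF, 6 for CF D0 against neoCF and 3 for iPSC2-CM D29 against D9. Without the D29 arrays these counts were the same, save the last, which has no value there. The shares of all genes called in that fit, in the same order, were 7.77%, 10.9%, 11.7%, 11.2%, 5.18%, 9.19%, 18.6%, 30.3%, 31%, 39.4% and 37.1%. Array weights also raised the calls over all genes in several comparisons counted next, so these member counts are not read alone. Shares of all genes are not given for the member counts of the other settings below. Genes called with array weights numbered 1798 on day 3 (981 in the main fit), 1217 for the change of effect (387), 2100 for MGT day 10 against 3 (1159), 2290 for LacZ (1514), 2031 for D29 against neoCF (7369) and 545 for D29 against D9 (4705). Without the D29 arrays they numbered 1508, 1005, 1785 and 2373 for the first 4 of these. Quantile normalization left 2 members called on day 14, as did the authors' values, which also left 1 for LacZ day 3 against CF D0. Normexp gave 1208 genes over days 3 to 10 (1925) and 932 for LacZ day 10 against 3, and 5 and 4 members for LacZ day 14 against CF D0 and CF D0 against neoCF. It moved the median of all genes to -0.26 for MGT day 14 and -0.32 for iCM against LacZ. No filter on dim probes gave 4705 genes on day 14 (2522) and 2508 for LacZ day 10 against 3. Leaving out arrays in turn gave 1 to 2 members on day 5, 1 on day 7, 0 to 1 on day 10, 1 to 3 on day 14, 1 to 2 for LacZ day 3 against CF D0 and 2 to 4 for neoCM against neoCF. Genes ranged from 239 to 456 for the change of effect, 756 to 853 for MGT day 10 against 3 and 889 to 1275 for LacZ. Signs turned for S100a4 on day 14 (0.49 with quantile, 0.24 with the authors' values, -0.29 to 0.02 with arrays left out), on day 5 (-0.04 to 0.19) and day 10 (-0.16 to 0.22, and -0.04 without MGT replicate 1) with arrays left out, and for iCM against LacZ (0.49 and 0.13), Tbx18 for iCM against neoCF (-0.16 and -0.13), Twist1 for iCM against LacZ (0.05 with normexp, 0.02 with the authors' values, -0.37 to 0.07 with arrays left out), Twist2 there (-0.52 to 0.69), Wt1 (-0.23 to 0.15, and 0.08 without iCM replicate 2) and Pdgfra (-0.14 to 0.04) for iCM against neoCF, and the called Tcf21 for D29 against D9 (-4.59 to 0.39). The causes were not tested. Differences between the replicates of a group were correlated across genes between pairs of groups. The median r was 0 (-0.13 to 0.17, 8 of 136 pairs over 0.1), and the main fit had no term for replicate number. The replicate block kept all 155 directions and lost 0 calls, with 1928 genes over days 3 to 10. Slide as a fixed block lost 3 of 37 calls and as a random block 0 of 40. Each group but neoCM lay within 1 slide, so the fixed block could change the estimate only of iCM against neoCM. The random block took a correlation of -0.11 between arrays of a slide. A negative value lowers standard errors between slides, and 2812 genes were then called on day 14. The kept calls therefore do not tell slide from group. Meox1 was not well above background on 1 iCM array, which limits the size of its differences there.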
